A study of Bombyx mori with 2 samples.

Results

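Non-coding RNAs 50 to 500 nt long were compared between the pupa and the larva of instar 5 of the silkworm, Bombyx mori (strain Dazao P50), with a 2-colour array. This comparison is 1 of the 2 samples of the study, chosen by its label, which names RNA from day 1 of pupation. All 132 probes whose name starts with Bm- were taken, each printed in 3 spots, and 115 of them had a usable value. Pupae gave RNA on day 1 of pupation and larvae in instar 5, both being animals of the same strain raised after hatching at 25 °C, with 14 h of light and 10 h of dark and 70% relative humidity. The other sample set RNA from diapaused eggs against the larva of instar 1, and is used below only beside the probes named here. The labels name no agent or mutant on either side. Tissue, sex and any pooling of animals were not given in the sources used here.

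In the silkworm the larva of instar 5 is the last feeding stage. It stops feeding, spins a cocoon and moults into a pupa, in which larval tissues such as the silk gland are broken down and adult tissues grow out. RNAs of this size class are mostly stable, structured RNAs that act in complexes with proteins. Small nucleolar RNAs guide chemical changes of ribosomal RNA, small nuclear RNAs work in the spliceosome, and the RNA of the signal recognition particle serves the export of proteins. The sources used here do not give the class of a Bm probe, so the probes are ordered by direction and by how well they were measured, and no sequence is shown.

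The pair was hybridised with both dye assignments. In orientation A pupal RNA was labelled with Cy5 and larval RNA with Cy3, and in orientation B the dyes were exchanged. Each stage had 1 RNA preparation, which the spots and orientations measured repeatedly, so the values below describe these preparations, and no test between the stages was made. The log2 ratio of a probe is the mean of log2(pupa/larva) over spots that the authors flagged 0, within each orientation and then over orientations. Its error is the technical SD over spots, taken after averaging the orientations within each spot. In a fully measured probe it therefore leaves out the difference between orientations. In whole-animal or tissue RNA, a change in the number of cells of a type and a change in RNA per cell cannot be told apart.

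The flag left out all background spots. None of the 108 negative control, blank and buffer spots was usable, 0 in either orientation, against 74.5% of the 396 Bm spots in orientation A and 58.8% in orientation B. The 27 negative control spots had a median signal of 65.8 for pupal Cy5, 56.9 for larval Cy3, 161 for pupal Cy3 and 76.3 for larval Cy5. In the same order of channels, the median usable Bm spot was 7.12, 8.64, 4.10 and 7.50 times as bright. Of the usable spots, between 96.6% and 99.7% of each channel lay above the 95th percentile of the negative controls, which was 131, 112, 237 and 169. Blank and buffer spots gave no such level in Cy5. In orientation A, 36 spots, 27 of them blank or buffer, shared 1 identical pair of signals, 7653 in pupal Cy5 and 56.3 in larval Cy3. None of these 36 spots was usable, and the negative controls alone were used here as background.

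Few probes differed by 2-fold. A probe was called when its log2 ratio reached 1 in size with the same sign in every usable spot and orientation. Of the 115 measured probes, 3 were called higher in pupa (2.61%) and 3 lower (2.61%), and 109 were not called. The median log2 ratio was -0.02, the middle 50% of probes lay between -0.31 and 0.25, and 53 probes were above 0 and 62 below it. The technical SD had a median of 0.13. Of the 6 called probes, 4 (Bm-86, Bm-18, Bm-129 and Bm-23) had 3 usable spots in both orientations. The others (Bm-85 and Bm-66) rested on a single spot, where the condition of the same sign is always met.

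**Figure D1:**
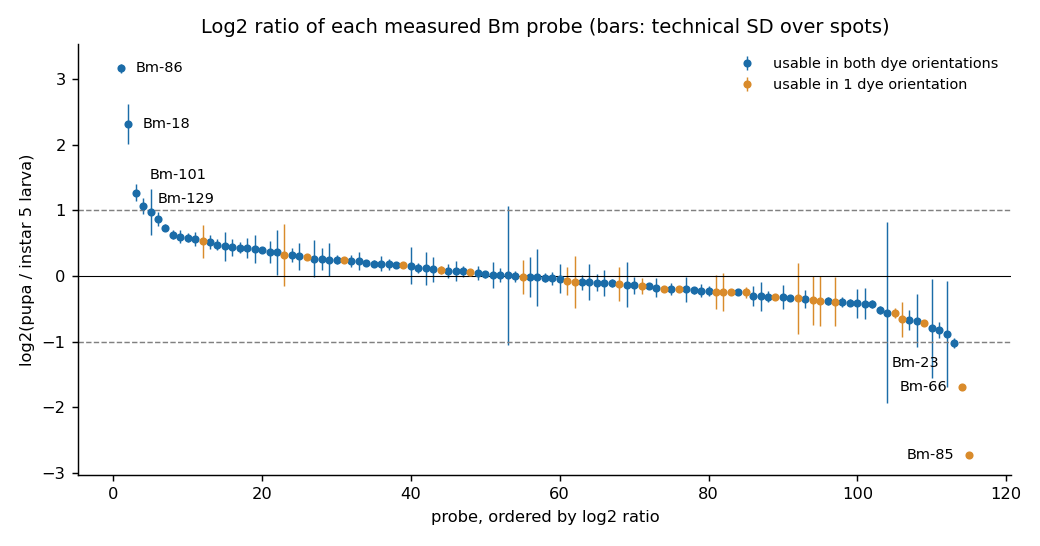
Log2 ratio of pupa over instar 5 larva (y axis) for each of the 115 measured probes, ordered from highest to lowest along the x axis, with the technical SD over spots as bars where a probe had more than 1 spot. Blue points were usable in both dye orientations and orange points in 1, dashed lines mark 2-fold, and the lowest 2 points, Bm-66 and Bm-85, have no error because each rests on 1 spot.

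Bm-86 had the largest ratio of all measured probes. In orientation A its 3 spots had pupal signals of 35021, 34978 and 35101, against larval signals of 6615, 6283 and 7580. In orientation B they had pupal signals of 81963, 55559 and 68024, against 5045, 3673 and 4427 in the larva. Pupal and larval signals did not overlap in either orientation. The log2 ratio was 3.16 ± 0.07 (technical SD, 3 spots), or 8.95-fold higher in pupa. The orientations differed more than the spots did, at 2.36 in orientation A and 3.96 in orientation B. In the first of these, every pupal spot was at 96.9% or more of the highest signal of that channel, and the 3 spots lay closer together than in any other channel of this probe. Whether a ceiling of the scanner lowered the first value was not tested.

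Bm-18 was the other probe past 3-fold with a full set of spots. Its pupal signals were 19033, 12209 and 9085 in Cy5, against 4143, 2876 and 2595 in larval Cy3. With exchanged dyes they were 13983, 7506 and 5043 in pupa, against 1765, 1210 and 1125 in the larva. The lowest pupal spot was brighter than the highest larval spot of the same orientation, although the spots themselves differed in brightness, the first listed being the brightest in each of the 4 channels. The log2 ratio was 2.31 ± 0.31 (technical SD, 3 spots), or 4.97-fold, with 2.03 and 2.59 in the 2 orientations. The larval Cy5 signals all lay above the highest negative control spot of their channel, 174, so that this ratio was measured on both sides.

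Bm-129 was higher in pupa at the edge of the threshold. Its pupal signals were 671, 550 and 1000.3 in Cy5, against 282, 229 and 716 in larval Cy3. With exchanged dyes they were 893, 704 and 863 in pupa, against 453, 338 and 331 in the larva. The stages did not overlap in orientation B, but they did in orientation A, because the third spot was brighter than the others on both sides. That spot had the lowest ratio, 0.48, where the other spots of that orientation had 1.25 and 1.26. The log2 ratio was 1.07 ± 0.12 (technical SD, 3 spots), or 2.10-fold, and 1.14 without the third spot. All 12 of its signals were above the 95th percentile of the negative controls of their channel. It was not called when centred on the control named control_ph, at 0.77. Nor was it called with dim signals raised to the pooled median of negative control, blank and buffer spots, at 0.90. Blank and buffer spots had medians of 1772 and 1617 in larval Cy5 against 55.2 in pupal Cy3. That floor therefore lifts mainly the larval side of orientation B, and the lower ratio follows from it. In orientation A alone it fell just short of the threshold, at 0.999.

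Below 2-fold, a further set of probes was higher in pupa with a narrow spread over spots. Bm-51 had pupal signals of 662, 509 and 576 against 381, 317 and 349 in the larva in orientation A, and 947, 591 and 661 against 451, 258 and 389 in orientation B. Its log2 ratio was 0.87 ± 0.11 (1.83-fold), and pupa was above the larva without overlap in both orientations. Bm-102 followed at 0.73 ± 0.05 (1.66-fold), with orientation means of 0.68 and 0.79, and Bm-7 at 0.63 ± 0.06 (1.55-fold), with 0.71 and 0.56. In Bm-51, Bm-102 and Bm-7 the orientations lay closer together than the median gap of 0.34. The same held for Bm-151, at 0.60 ± 0.10, and Bm-146, at 0.57 ± 0.10. Bm-173 had a like mean of 0.59 ± 0.07, but its orientations were apart, at 0.15 and 1.03.

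**Figure D2:**
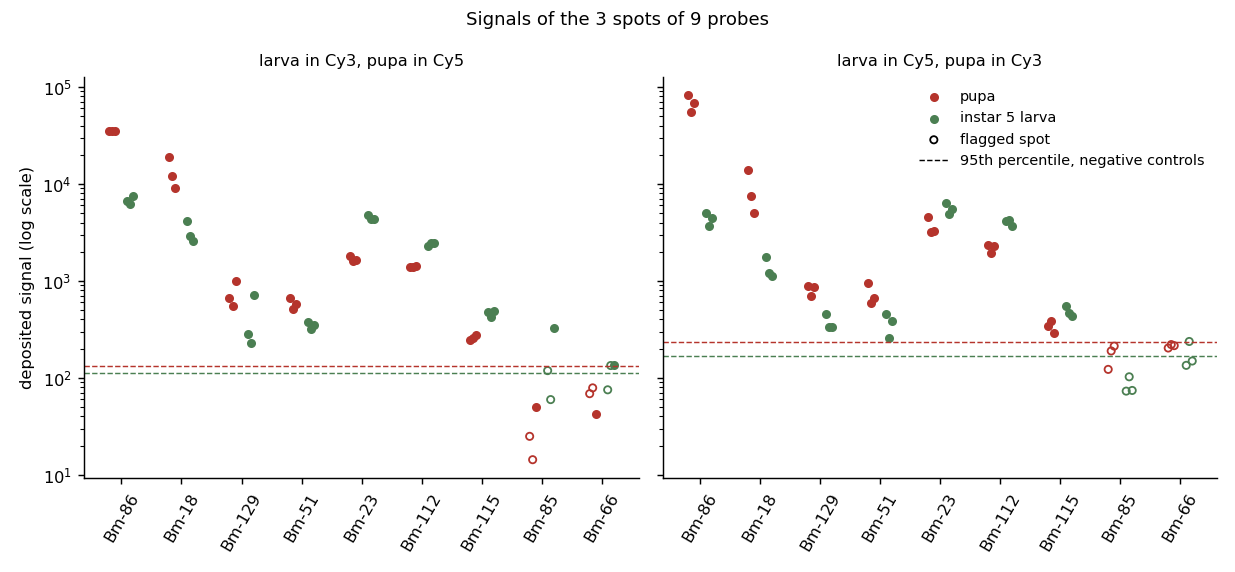
Deposited signal on a log axis of the 3 spots of 9 probes, pupa (red) left of instar 5 larva (green), orientation A (larva in Cy3) in the left panel and B (larva in Cy5) in the right panel. Filled points are usable spots and open points flagged ones, and dashed lines give the 95th percentile over negative control spots in the channel of the same colour. Bm-86 and Bm-18 stand far above these lines on both sides, while the pupal Cy5 spots of Bm-85 and Bm-66 stand below them.

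Bm-23 was the lower probe measured in full. Its pupal signals were 1792, 1611 and 1653 in Cy5, against 4783, 4352 and 4365 in larval Cy3. With exchanged dyes they were 4552, 3156 and 3232 in pupa, against 6298, 4866 and 5547 in the larva. No pupal spot reached a larval spot in either orientation. The log2 ratio was -1.02 ± 0.07 (technical SD, 3 spots), or 2.03-fold lower in pupa. It stood close to the threshold, at -1.42 in orientation A, at -0.62 in orientation B, and at -0.99 without the third spot, where it was no longer called.

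Bm-112 came next among the fully measured probes and was closer between the dyes. It had pupal signals of 1388, 1384 and 1435 against larval signals of 2294, 2442 and 2461 in orientation A. In orientation B it had 2357, 1943 and 2282 in pupa, against 4109, 4217 and 3666 in the larva. Pupa was below the larva without overlap. The log2 ratio was -0.82 ± 0.13 (1.77-fold lower), with orientation means of -0.77 and -0.87. It was not called, but it passed the threshold at -1.12 when the arrays were centred on control_ph. Bm-115 was at -0.67 ± 0.15 (1.59-fold lower) and Bm-50 at -0.52 ± 0.06, each with all 6 spot values below 0. Bm-170, Bm-93, Bm-108 and Bm-136 lay between -0.43 and -0.39, also with all 6 values below 0. Bm-52 and Bm-183 had means in the same range, -0.42 ± 0.22 and -0.35 ± 0.14, but a spot of each was above 0.

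The other called probes had pupal signals under the background. Bm-85 had 1 usable spot, with a pupal Cy5 signal of 49.5 against a larval Cy3 signal of 328 and a log2 ratio of -2.73. Bm-66 had 1 as well, with 42.2 against 136 and a ratio of -1.69. Both pupal signals were under the median of the negative controls of that channel, 65.8. The larval signals were above the 95th percentile of theirs, 112, by a wide margin for Bm-85 and a narrow one for Bm-66. With dim signals raised to that percentile of each channel, Bm-85 was at -1.32 and still called, and Bm-66 was at -0.05. With them raised instead to the pooled median of negative control, blank and buffer spots, Bm-85 was at -0.43 and not called, and Bm-66 was at 0.84. Blank and buffer medians were 720 and 7653 in pupal Cy5 against 56.3 in larval Cy3, so that floor lifts mainly the pupal side. In orientation B all spots of both probes were flagged. Those of Bm-85 had log2 ratios of 0.74, 0.88 and 1.52 there, opposite in sign to its call. Those of Bm-66 had 0.59, -0.11 and 0.53. Neither probe was called once flagged spots were counted, where Bm-85 had -0.65 and Bm-66 had -0.26 as the mean of both orientations.

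At 1.5-fold the same rule gave 9 probes higher (7.83%) and 9 lower (7.83%). The sides were not measured equally well. Of the 9 higher probes, 8 had all 3 spots in both orientations, and the exception was Bm-81, at 0.98 ± 0.35, with 0.26 from 3 spots in one orientation and 1.69 from 1 spot in the other. Of the 9 lower probes, only Bm-23, Bm-112 and Bm-115 had full sets. The other lower ones were Bm-85, Bm-66, Bm-64, Bm-44, Bm-37 and Bm-30, and Bm-64 and Bm-44 had technical SDs of 0.81 and 0.76, close to their ratios of -0.88 and -0.80. Bm-81 and these last 4 lower probes were singled out after their values were seen.

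**Figure D3:**
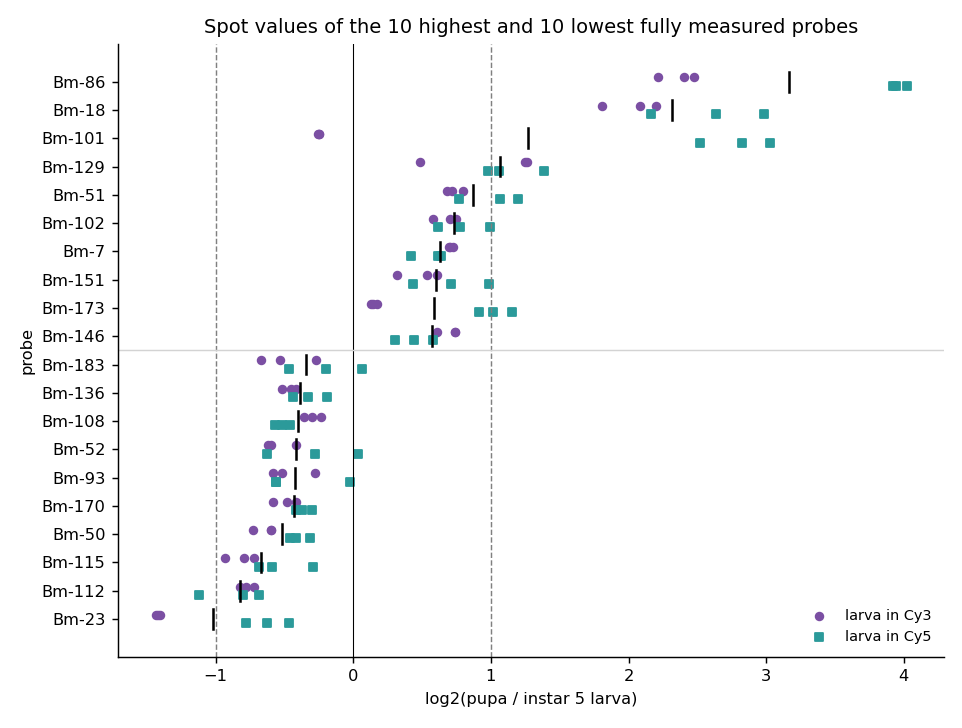
Spot values of log2(pupa/larva) on the x axis for the 10 highest (upper rows) and 10 lowest (lower rows) of the 62 probes usable in 3 spots and both dye orientations. Circles are orientation A, squares orientation B, black ticks are the probe means and dashed lines mark 2-fold. Bm-86, Bm-23, Bm-101 and Bm-173 show their orientations apart, and Bm-112, Bm-102 and Bm-170 show them together.

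Among the 62 fully measured probes, 27 had 1 sign in all 6 spot values, 17 of them higher in pupa and 10 lower, and 35 had mixed signs. Besides those given above, the higher set held Bm-26, Bm-172, Bm-27, Bm-163 and Bm-103, from 0.52 to 0.39, and Bm-154, Bm-45 and Bm-117, from 0.25 to 0.18. The lower set also held Bm-84 at -0.31 and Bm-6 at -0.20. The zero point mattered for the smallest of these. The control_ph spots, all 12 usable in both orientations, averaged 0.30 ± 0.15 on the log2 scale (technical SD over 12 spots), and centring on them moved every fully measured probe by -0.30. Under it 14 of the 17 higher probes and all 10 lower probes had the same sign as before, and Bm-154, Bm-45 and Bm-117 turned below 0. With each array centred on the median of its usable Bm spots, the shift was -0.02 and all 27 had the same sign. The files do not state what control_ph detects, so which zero point is right was not tested.

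Of the 62, 47 were within 0.5 of 0 on the log2 scale. Several of these had small errors over spots. Bm-107, picked out after its values were seen, had pupal signals of 918, 935 and 894 against 970, 844 and 916 in the larva in orientation A. In orientation B it had 797, 628 and 785 in pupa, against 785, 671 and 688 in the larva. The stages overlapped in both orientations, and the log2 ratio was 0.03 ± 0.05. Bm-88 and Bm-72 were picked out in the same way. Bm-88 was at -0.005 ± 0.09, and its stages overlapped in both orientations. Bm-72 was at -0.02 ± 0.06, with pupa above the larva without overlap in orientation A, at 0.13, and a mean of -0.18 in orientation B. These values do not show that the RNAs were unchanged, since each stage had 1 RNA preparation.

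The 10 probes with the brightest pupal signal were Bm-86, Bm-101, Bm-68, Bm-33, Bm-18, Bm-48, Bm-146, Bm-172, Bm-154 and Bm-164. Of these, Bm-86 and Bm-18 were called higher, and the other 8 were not called. Over all 115 measured probes, 2.61% were called higher and 2.61% lower. The pupal signal that ranked these probes is also the upper side of the ratio. The choice therefore favours probes higher in pupa. Bm-164 was at 0.07 ± 0.09 and Bm-154 at 0.25 ± 0.07, while Bm-172 was at 0.48 ± 0.09 and Bm-48 at 0.43 ± 0.09, the last with 0.06 and 0.81 in its orientations. A probe's brightness also depends on the probe itself, so this order is not one of RNA amounts.

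Several of these bright probes had signals at the top of a channel in orientation A. The highest pupal Cy5 signal over the highest larval Cy3 signal of that array gives a log2 ratio of -0.25. Bm-101 had spot values of -0.25, -0.25 and -0.25 there, with its lowest spot at 98.6% of the highest pupal Cy5 signal and 98.9% of the highest larval Cy3 signal. Bm-33 had the same 3 values, with 99.4% and 99.5%. Whether these channels were saturated was not tested. Bm-68 was at the top for pupa only, at 97.4% or more, against at most 57.8% for the larva, and its ratio there was 0.53.

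With the dyes exchanged, these 3 probes parted. Bm-101 had pupal signals of 71544, 42045 and 58928 against 8789, 7330 and 8322 in the larva, and a ratio of 2.79. Bm-33 had 7848, 6338 and 6531 in pupa against 7647, 6638 and 7152 in the larva, and a ratio of -0.05. Bm-68 had 7333, 6992 and 8753 in pupa against 8180, 7727 and 9094 in the larva, and a ratio of -0.12. In this orientation Bm-101 was higher in pupa without overlap, while the stages overlapped in Bm-33 and Bm-68. The means of 1.27, -0.15 and 0.20 average the 2 orientations, and none of the 3 was called.

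**Figure D4:**
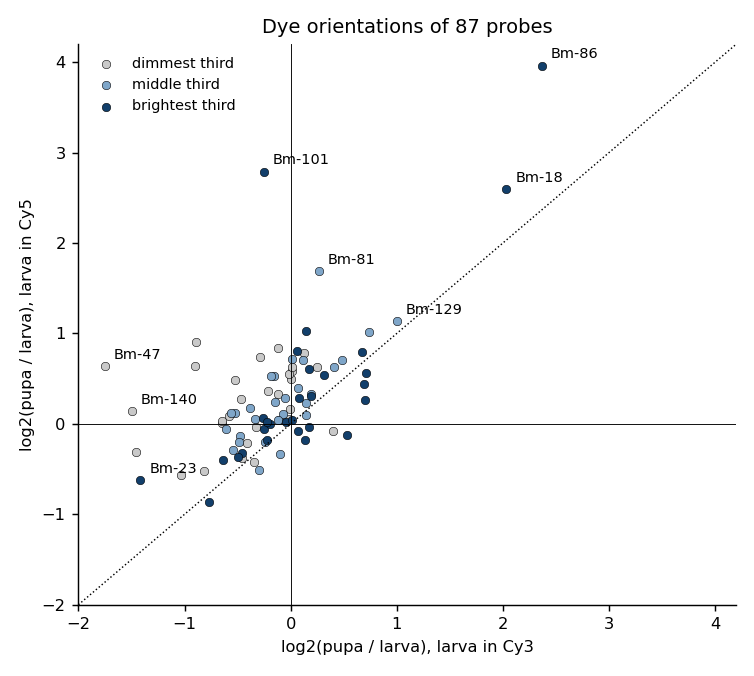
Log2 ratio of pupa over larva in orientation A (x axis) against that in orientation B (y axis) for the 87 probes usable in both, shaded by their mean signal in 3 equal groups. On the dotted line both orientations give the same ratio, and 74 of the 87 points lie above it, with Bm-101 and the dim probe Bm-47 farthest away.

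The dye orientation moved many probes more than their spots did. Over usable Bm spots, the median log2 ratio was -0.15 in orientation A and 0.19 in orientation B. Of the 87 probes usable in both, 74 had the higher ratio in orientation B. The means of the orientations had the same sign in 51 and opposite signs in 36. By size of the mean ratio, they shared the sign in 11 of 40 probes under 0.25, in 23 of 27 from 0.25 to 0.5, in 13 of 15 from 0.5 to 1, and in 4 of 5 at 1 or more, where Bm-101 was the exception. Opposite signs shrink the mean of the orientations, so part of this rise with size is built into the grouping.

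The gap also went with brightness. In the 29 dimmest of these 87 probes the orientations had a median gap of 0.57 in size, with median ratios of -0.34 and 0.28. In the middle 29 the gap was 0.29, with -0.11 and 0.18, and in the brightest 29 it was 0.23, with 0.07 and 0.04. The called probes usable in both orientations were 0 of the dimmest, 1 of the middle and 3 of the brightest. The technical SD over spots fell in the same order, with medians of 0.22, 0.11 and 0.08.

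The largest gaps were those of Bm-101, at 3.04, and of Bm-47, Bm-133, Bm-140 and Bm-86, from 2.39 to 1.60. Bm-47, Bm-133 and Bm-140 were dim probes. Bm-47 was at -1.75 from 1 spot in orientation A, where pupa had 62.7 and the larva 211, and at 0.64 from 2 spots in orientation B. Bm-133 was at -0.89 and 0.91, and Bm-140 at -1.49 and 0.14. In each of the 3, pupal Cy5 signals that were near or below 131, the upper level of the negative controls, went with the low value.

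A single spot could also move a well measured probe. In Bm-8, picked out after its values were seen, the second spot in orientation A read 204 for pupa against 356 for the larva, where the other spots had 1759 and 1713 against 1396 and 1345. That spot was flagged 0 and gave -0.80, while the others gave 0.33 and 0.35. In the other orientation the same printed position had 1719 against 1621, like its neighbours. The mean of Bm-8 was -0.01 ± 0.30.

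The egg pair offers the same probes on other arrays, with other larvae. Among the 11 fully measured probes past 1.5-fold in pupa with 1 sign, Bm-86 and Bm-18 were opposite in sign in egg. Bm-86 was at -6.04 ± 0.77 in egg over the larva of instar 1, and Bm-18 at -0.83 ± 0.18. The 2 dye orientations of Bm-86 in the egg pair were far apart, at -7.14 for egg in Cy5 and -4.95 for egg in Cy3. Its egg signals were 150, 150 and 203 in Cy5 and 165, 191 and 171 in Cy3, where the negative controls of the egg channels had medians of 150 and 141. The larval signals beside them were 39184, 43079 and 7518 in Cy3 and 5380, 5063 and 5889 in Cy5. The gap between the orientations thus lay mainly on the larval side, while the size of the ratio rests on egg signals near background. Bm-102 had nearly the same value in both pairs, 0.73 ± 0.05 in pupa and 0.77 ± 0.05 in egg. Bm-7 was at 0.63 in pupa and 0.35 in egg, Bm-151 at 0.60 and 1.11, Bm-23 at -1.02 and -1.85, and Bm-112 at -0.82 and -0.24, each with 1 sign in every usable spot of the egg pair. Bm-129, Bm-51, Bm-173 and Bm-115 had mixed signs in egg, with means of 0.05, 0.12, 0.14 and -0.18. Bm-170 was at -0.43 in pupa and 0.30 in egg, and Bm-183 at -0.35 and 1.09. Bm-101, fully measured but with mixed signs in pupa, was at 1.27 in pupa and -0.31 in egg. No difference between the pairs was tested.

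**Figure D5:**
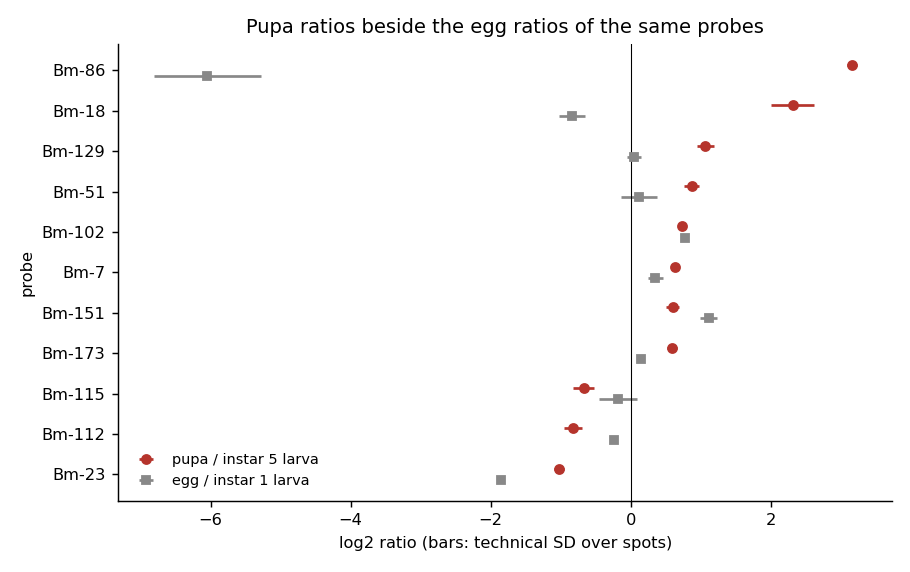
Log2 ratio (x axis) of pupa over instar 5 larva (red circles) and of diapaused egg over instar 1 larva (grey squares) for the 11 fully measured probes past 1.5-fold in pupa with 1 sign, with the technical SD over 3 spots as bars. Bm-86 and Bm-18 lie on opposite sides of 0, and Bm-102 lies at the same place in both pairs.

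The remaining 17 probes had no usable spot in the pupa pair, and 8 of them had one in the egg pair. In 7 of the 17 the mean signal was at or under the 95th percentile of the negative controls in all 4 channels, and in 13 it was so in both Cy3 channels. Bm-61 was the only one of the 17 above that level in every channel, with mean signals of 244 and 437 in pupa against 115 and 218 in the larva. Bm-174, picked out after its values were seen, had a log2 ratio of 1.33 ± 0.09 in the egg pair, and here its mean larval Cy3 signal was 56.3, near the median of the negative controls. The sources used here do not say what set the flag, and a flagged probe may still be present in either stage. A further 24 probes were usable only in orientation A and 4 only in orientation B, and 8 of the measured probes rested on a single spot value.

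In the authors' deposited table each spot has a p-value. It was below 0.05 in every spot with a value for 11 of the 115 measured probes, namely Bm-86, Bm-18, Bm-101, Bm-129, Bm-51, Bm-102 and Bm-7 with positive ratios, and Bm-85, Bm-66, Bm-23 and Bm-112 with negative ones. This list adds Bm-101, Bm-51, Bm-102, Bm-7 and Bm-112 to the 6 called here. In the authors' deposited table the highest p-value of Bm-102 was 0.017 and that of Bm-112 was 0.011. How these p-values were computed is unstated in the sources used here, and with 1 RNA preparation per stage they hold no spread between preparations.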

How the data were processed

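The deposited spot table of the pupa pair gives, per the file headers, red (Cy5) and green (Cy3) intensity values for 2 dye-exchanged hybridisations, a flag score per spot (0 or -50), a log2 ratio and a p-value. Per the labels, RNA was taken with Trizol and labelled during cDNA synthesis. The sources used here do not state the authors' background correction or normalization. The intensities hold decimals and were treated as already normalized, which is an inference, so the planned loess was not added. The authors' deposited log2 ratio per spot equals the mean over hybridisations flagged 0. The value table's log2 ratios, also deposited, average spots first, so 14 probes differ by over 0.1 from those here.

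Ratios, calls and figures were made with Python 3.11.15, numpy 2.4.6, pandas 2.3.3 and matplotlib 3.10.9. The calculation was tested on simulated log2 ratios with a constant dye offset and the same noise for all spots. These held no background level and no top of a channel. The simulation therefore checks the arithmetic and does not bear on calls near those limits. No p-value was computed. Named probes were the called ones, the 10 highest and 10 lowest with full spot sets, the 10 brightest in pupa and the 5 with the largest orientation gaps. Members, rules and alternatives were chosen with earlier results of these data known. The number of arrays limits the precision.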

Additional observations from a re-analysis of the deposited data

Results flagged for a closer look

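In 11 probes every usable spot of the pupa pair lay on one side of 0 and every usable spot of the egg pair on the other, out of 32 with 1 sign in both pairs. None of these differences was tested. Bm-86 was at 3.16 in pupa and -6.04 in egg, and Bm-18 at 2.31 and -0.83. Among the others with full spot sets in the pupa pair, Bm-26 was at 0.52 in pupa and -0.07 in egg, Bm-117 at 0.18 and -0.40, and Bm-170 at -0.43 and 0.30. With centring on control_ph, Bm-117 was at -0.12 in pupa, so its side there depended on the zero point. The other 6 had fewer usable spot values. In the pupa pair Bm-37 had 1, where the condition of the same sign is always met, and Bm-159 and Bm-177 had 2 each. Bm-81 was at 0.98 in pupa and -0.71 in egg, Bm-37 at -0.72 and 0.67, and Bm-44 at -0.80 and 0.10. Bm-100 was at -0.23 in pupa and 0.99 in egg, Bm-159 at -0.25 and 1.36, and Bm-177 at -0.38 and 0.57. Outside the Bm probes, control_ph had 0.30 as its log2 ratio, and its spots stood above the negative controls in both stages. The control named RpL3, a ribosomal protein messenger RNA, had 1 usable spot of 12 in orientation A, above the negative controls and at -0.22, and 0 in orientation B. The control named actinA3 had 0 usable spots of 12 in either orientation.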

How the results depend on the processing

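Calls of 3 higher and 3 lower probes became 9 and 9 at 1.5-fold, and 5 and 1 with flagged spots kept. In orientation A alone 7 were lower, and in orientation B alone 7 were higher and 0 lower. These settings do not cover the same probes. The main calls were made over 115 probes, of which orientation A alone leaves out 4 and orientation B alone 24. Keeping flagged spots adds the 17 probes without a usable spot, and full spot sets hold 62 probes. Leaving out each spot in turn gave 3 to 3 higher and 2 to 3 lower, and medians of all probes from -0.05 to -0.01. Without the third spot, none of the lower calls Bm-23, Bm-66 and Bm-85 remained, and the 2 lower probes were Bm-44 and Bm-64. Lower calls were 6 with centring on control_ph, 1 with full spot sets only, and 1 with dim signals raised to the pooled median of negative, blank and buffer spots, alternatives chosen after seeing the data. The last also turned Bm-66 to 0.84 and ended the calls of Bm-85 (-0.43) and Bm-129 (0.90). Blank and buffer spots raise that floor in Cy5 and not in Cy3, so these changes are partly built into it. The median of all probes (-0.02) was -0.15 in orientation A alone, 0.16 in orientation B alone and -0.32 with centring on control_ph. Bm-86, Bm-18 and Bm-23 had their sign under all 14 alternatives, Bm-86 from 2.36 to 3.96, Bm-18 from 2.01 to 2.59 and Bm-23 from -1.42 to -0.62. Of 31 named probes, 23 had 1 sign under all alternatives run for them. Several alternatives, such as keeping flagged spots, cannot move a bright probe with full spots. Many of these probes were also named for their extreme ratios, so a kept sign is partly built in. The causes were not tested. No paired analysis was possible because each stage had 1 RNA preparation.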
